A study of Mus musculus with 29 samples.

Results

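The genes described here encode the nuclear subunits of the oxidative phosphorylation complexes of mitochondria. Members were all genes of probe sets annotated to a single gene whose symbol starts with Ndufa, Ndufb, Ndufc, Ndufs, Ndufv, Uqcr, Cox4, Cox5, Cox6, Cox7, Cox8 or Atp5, or is Sdha, Sdhb, Sdhc, Sdhd, Cyc1 or Cycs. This choice by name took 86 of the 12394 genes on the array and used no measured value. Of these, 83 passed the intensity filter (a log2 intensity above 6.99, the median of all values, on at least 3 arrays) and were tested among 7154 genes. The tested members were 33 genes of complex I, 5 assembly factors of complex I that share the Ndufa prefix, 4 of complex II, 9 of complex III, cytochrome c (Cycs), 14 of complex IV and 17 of complex V. Cox4i2, Cox6b2 and Cox8b, isoforms of complex IV subunits known from lung, testis and muscle, were above the filter on 0 arrays and were not tested. Cox6a2 and Cox7a1, also muscle isoforms, passed through 9 and 4 of the 29 arrays, so they sit close to the limit of what the arrays distinguish. These were arrays of groups where the 2 genes were high, so their differences are given as descriptions with no p, though counts of called members include them.

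Marrow cells of C57BL/6 mice (8 weeks old) became macrophages over 7 days in Teflon bags with 10 ng/ml CSF-1, which macrophages need to differentiate and survive. For a further 24 h they received IL-4 (5 arrays), both IL-4 and IL-10 (3 arrays), IL-10 (3 arrays), IL-6 (5 arrays) or both IL-6 and IL-4 (5 arrays), each at 10 ng/ml, or no added cytokine (8 arrays, unstimulated), and all groups, the unstimulated one included, received CSF-1 at 10 ng/ml throughout. RNA was measured on 3' expression arrays, and all values are log2 intensities, so that a difference of 1 is a doubling of signal. The labels do not say whether replicates came from separate mice or cultures, so p-values measure the spread between arrays.

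Complexes I to IV pass electrons from NADH and succinate to oxygen, with cytochrome c carrying them between complexes III and IV, and complexes I, III and IV pump protons out of the mitochondrial matrix. Complex V, the ATP synthase, lets the protons flow back and makes ATP. Macrophages that respond to IL-4 are known for a metabolism that leans on oxidative phosphorylation, and PGC-1β (Ppargc1b), a coactivator of the nuclear respiratory factors, is a known part of that program. The subunits encoded by mitochondrial DNA are not among the members.

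Promoter windows (250 bases before to 50 after the transcription start, RefSeq, GRCm38.p6) were found for 71 of the 86 members. The windows were searched on both strands for the core of the NRF1 site (GCGC, any base, then TGCGC), a core of the ETS family, which includes GABPA (CCGGAAG), and the YY1 core (AAGATGG), 3 factors known to act on respiratory chain genes. The NRF1 letters stood in 16 of 71 member windows (22.5%), against 5.19% of the windows of 27025 genes. The ETS letters stood in 25.4% of member windows against 9.93% of all windows, and the YY1 letters in 14.1% against 7.28%. Complex V held the NRF1 letters in 6 of 15 windows and complex I in 4 of 30. A match is a description of the letters and no sign of binding. The windows below are shown because Uqcrc1, Sdha and Atp5o were among the members with the largest rises with IL-4 and hold the NRF1 letters, while Cox7a2l, which fell, holds none of the 3 motifs. They were picked for this contrast and do not stand for a rule: Atp5b and Cycs, which also rose, hold none of the NRF1 letters, and Atp5g2 and Ndufa6, not called higher, hold them. Over the members tested, 14 of 57 called higher with IL-4 held the NRF1 letters (24.6%), as did 2 of 12 not called higher (16.7%). Capitals mark the NRF1 matches, which number 2 in Uqcrc1 (chr9:108936398-108936697, plus strand), 3 in Sdha (chr13:74350191-74350490, minus strand) and 1 in Atp5o (chr16:91931581-91931880, minus strand). The Cox7a2l window is chr17:83514284-83514583 on the minus strand.
Uqcrc1: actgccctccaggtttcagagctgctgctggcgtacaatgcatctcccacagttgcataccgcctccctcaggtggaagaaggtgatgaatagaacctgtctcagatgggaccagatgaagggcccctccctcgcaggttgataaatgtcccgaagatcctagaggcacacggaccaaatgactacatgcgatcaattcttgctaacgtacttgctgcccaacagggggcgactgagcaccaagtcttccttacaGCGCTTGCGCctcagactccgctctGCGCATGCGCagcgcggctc
Sdha: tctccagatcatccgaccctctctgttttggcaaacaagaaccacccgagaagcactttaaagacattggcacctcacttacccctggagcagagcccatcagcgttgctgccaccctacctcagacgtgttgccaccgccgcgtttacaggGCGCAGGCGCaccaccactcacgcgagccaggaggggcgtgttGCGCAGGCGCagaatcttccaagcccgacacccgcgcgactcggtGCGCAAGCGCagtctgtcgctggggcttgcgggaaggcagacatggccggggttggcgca
Atp5o: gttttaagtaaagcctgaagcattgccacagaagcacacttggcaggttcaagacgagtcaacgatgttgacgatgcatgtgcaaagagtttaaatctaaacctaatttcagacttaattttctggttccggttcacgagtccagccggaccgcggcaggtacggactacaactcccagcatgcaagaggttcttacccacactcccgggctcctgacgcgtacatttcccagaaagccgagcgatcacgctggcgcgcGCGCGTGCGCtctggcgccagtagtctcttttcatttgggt
Cox7a2l: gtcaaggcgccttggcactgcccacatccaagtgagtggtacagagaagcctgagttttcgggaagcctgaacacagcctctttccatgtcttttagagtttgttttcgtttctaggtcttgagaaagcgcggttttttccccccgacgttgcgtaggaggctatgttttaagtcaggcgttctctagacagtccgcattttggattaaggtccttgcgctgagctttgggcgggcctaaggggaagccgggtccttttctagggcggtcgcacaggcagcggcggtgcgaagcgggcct

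Array medians lay between 6.95 and 7.03 and correlations between arrays between 0.973 and 0.998. All 8 macrophage markers looked at were above the filter on every array. The log2 of their summed unlogged intensities was 16.02 to 16.14 in the 3 groups with IL-4 and 16.54 to 16.61 with IL-6 or IL-10, against 16.46 to 16.53 in unstimulated cells. Sums of this kind, also given for the other lists, are led by the brightest probe sets. Markers of T and NK cells (4 of 4), of mast cells and basophils (5 of 5) and 4 of 5 of fibroblasts were above the filter on 0 arrays. Of 7 neutrophil markers, 4 were above it on every array and Elane and Mpo on 0, with a sum of 12.31 to 12.71 with IL-4 and 12.07 to 12.48 with IL-4 plus IL-6, against 12.79 to 13.45 in unstimulated cells. Of 6 B lineage markers, 1 was above it on every array and Cd79a on 0, with a sum of 11.22 to 12.56 with IL-4 and 10.44 to 10.58 with IL-4 plus IL-10, against 11.16 to 13.0 in unstimulated cells. Of 3 erythroid and megakaryocyte markers, 2 were above it on every array and Hba-a1 on 0, with a sum of 10.62 to 10.86 with IL-4, 12.51 to 12.95 with IL-6 and 12.81 to 12.96 with IL-10, against 11.3 to 11.84 in unstimulated cells. The part of these markers in the results was not tested. Among the unstimulated arrays, replicates 6 to 8 were read as made with the IL-10 groups (the second set of arrays) and replicates 1 to 5 as made with the rest (the first set), a split inferred from replicate numbers that no label states. It matters here, since 32 of 83 members were higher and 0 lower in unstimulated replicates 6 to 8 than in 1 to 5 (median difference 0.12), where 12.3% of all genes tested were higher and 6.82% lower. For Actb, the 3' minus the 5' probe set, which reads RNA integrity and labelling, moved with this split too, at 0.44 ± 0.070 in replicates 6 to 8 and 0.32 ± 0.0089 in replicates 1 to 5 (SD, n = 3 and n = 5). The same measure for Gapdh did not, at -0.06 ± 0.048 and -0.05 ± 0.014. Because of the split, values within a set are given for the counts of members and for some of the genes, beside those against all 8 unstimulated arrays.

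IL-4 raised the RNA of most oxidative phosphorylation subunits, by a modest amount and in every complex. Of 83 members, 69 were higher and 3 lower than in unstimulated cells (limma, adjusted p under 0.05), where 27.6% of all genes tested were higher and 31.9% lower. The median difference of the members was 0.27 on the log2 scale (1.21-fold), against -0.014 over all genes tested. Against unstimulated replicates 1 to 5 alone, 71 members were higher and 1 lower, with a median difference of 0.34, where 29.6% of all genes were higher and 31% lower. In bulk RNA a change in the share of cells and a change in RNA per cell cannot be told apart.

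**Figure D1:**
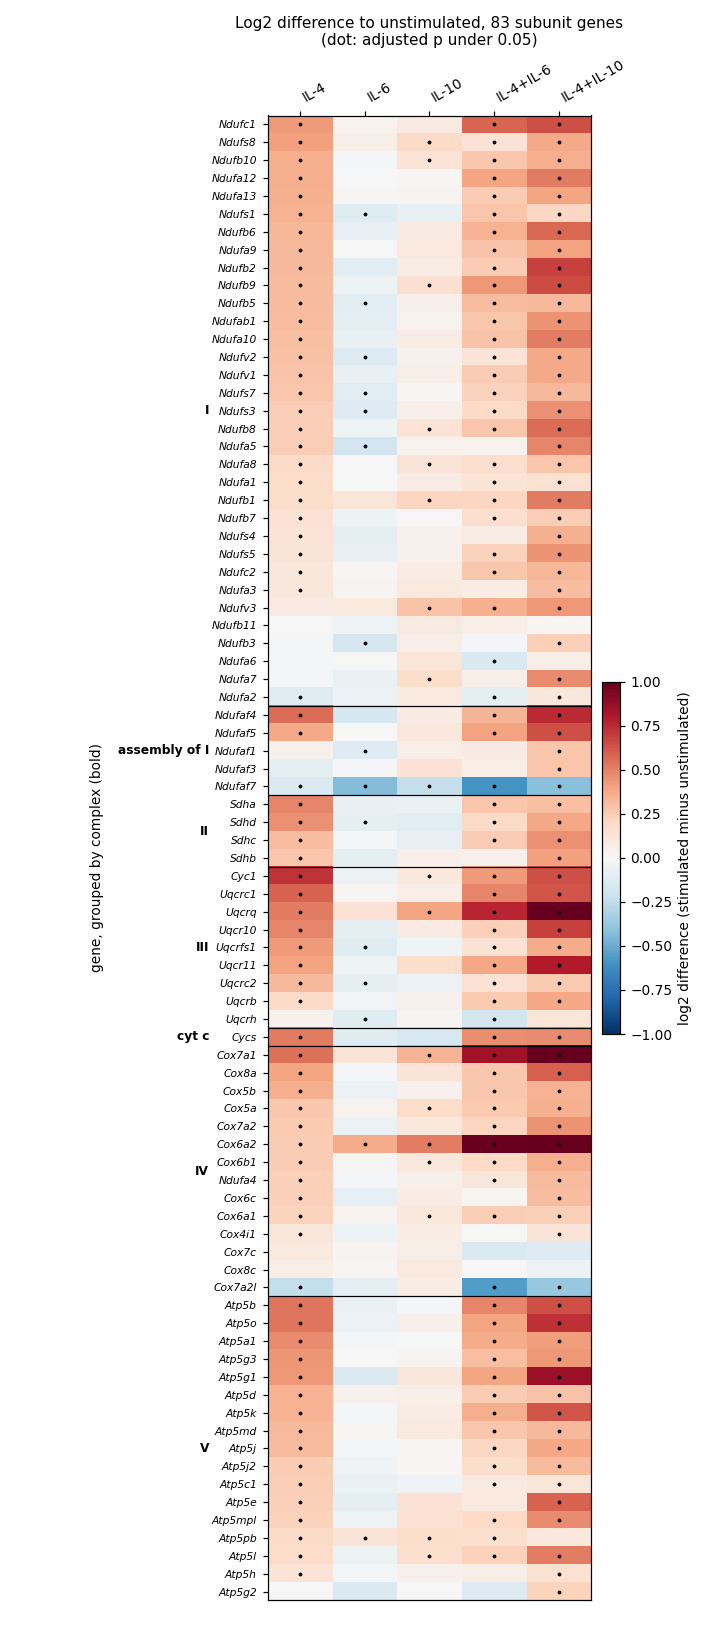
Log2 difference of each of the 83 tested members (rows, grouped by complex) to the 8 unstimulated arrays under the 5 stimulations (columns), red for higher and blue for lower, with a dot where the adjusted p was under 0.05. The 3 columns with IL-4 are red in nearly all rows, with Cox7a2l and Ndufaf7 blue, while the IL-6 and IL-10 columns are pale. Differences above 1 share the darkest red.

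Complex III had the largest median difference of the complexes I to V with IL-4, at 0.42, and 8 of its 9 tested genes were higher. Cyc1, the cytochrome c1 subunit that hands electrons to cytochrome c, lay at 11.67, 11.63, 11.62, 11.64 and 11.66 with IL-4, against 10.87, 10.90 and 11.03 (lowest, median and highest of 8) in unstimulated cells. The groups did not overlap, and the difference of 0.72 ± 0.036 (SE) was the largest of the 83 members (adjusted p = 5.54e-16). Uqcrc1, a core protein of the complex, lay at 11.53, 11.45, 11.48, 11.48 and 11.46 with IL-4, against 10.84, 10.87 and 10.97 in unstimulated cells, again without overlap (0.59 ± 0.039, adjusted p = 2.64e-13). The Rieske iron-sulfur protein, Uqcrfs1, had a difference of 0.42 ± 0.037 (adjusted p = 9.74e-11), and Uqcrq, a small ubiquinone-binding subunit, one of 0.52 ± 0.070 (adjusted p = 3.49e-07). The probe set used for Uqcrq here and below is of a kind that can match other sequences. It is the only 1 of 4 for the gene with a mean above the filter. Uqcrh, the acidic hinge protein, was the 1 gene of complex III that did not pass the test (0.04 ± 0.049, adjusted p = 0.494). Cycs, cytochrome c itself, lay between 12.60 and 12.85 with IL-4 and between 12.08 and 12.38 in unstimulated cells (0.52 ± 0.074, adjusted p = 9.12e-07), and its 2 other probe sets gave 0.62 and 0.70.

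All 4 subunits of complex II, succinate dehydrogenase, rose with IL-4. Sdha, the flavoprotein that oxidizes succinate, lay at 12.19, 12.06, 12.04, 12.05 and 12.01 with IL-4, against 11.55, 11.57 and 11.63 in unstimulated cells (0.49 ± 0.035, adjusted p = 1.5e-12). No unstimulated array reached the lowest IL-4 array. Sdhd, a membrane anchor, had a difference of 0.46 ± 0.039 (adjusted p = 7.89e-11), Sdhc, the other anchor, one of 0.31 ± 0.036 (adjusted p = 2.13e-08), and Sdhb, the iron-sulfur subunit, one of 0.28 ± 0.040 (adjusted p = 9.68e-07). The median over complex II was 0.38.

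In complex V, 16 of 17 genes rose with IL-4 and the median difference was 0.32. The 5 subunits of the catalytic F1 part were all higher. Atp5b, the catalytic β subunit, lay at 13.06, 12.98, 12.97, 13.10 and 13.12 with IL-4, against 12.42, 12.49 and 12.65 in unstimulated cells (0.54 ± 0.040, adjusted p = 4.03e-12). Atp5o, which joins the F1 part to the peripheral stalk, lay at 12.30, 12.21, 12.15, 12.12 and 12.10 with IL-4, against 11.50, 11.63 and 11.84 in unstimulated cells (0.54 ± 0.050, adjusted p = 3.94e-10). Neither gene's groups overlapped. The 3 genes of the proton-carrying c ring encode the same mature protein. Atp5g1 had a difference of 0.43 ± 0.066 and Atp5g3 one of 0.44 ± 0.023, while Atp5g2 had one of 0.00 ± 0.061 (adjusted p = 0.991), or 0.10 within the first set (adjusted p = 0.0659). With the replicate number as a block within that set it was called higher (0.10 ± 0.031, adjusted p = 0.00924). A difference between these genes was not tested.

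Complex I, which takes electrons from NADH, had 27 of 33 genes higher and 1 lower, with a median difference of 0.25. The 6 core subunits among them (Ndufs1, Ndufs3, Ndufs7, Ndufs8, Ndufv1 and Ndufv2), from the part that carries the flavin and the iron-sulfur centres, were all higher (median 0.29), as were 21 of 27 accessory subunits (median 0.19). Ndufs8, a core iron-sulfur subunit, lay at 12.03, 11.98, 11.96, 11.90 and 12.00 with IL-4, against 11.44, 11.54 and 11.69 in unstimulated cells (0.41 ± 0.039, adjusted p = 6.14e-10), and the lowest IL-4 array was above the highest unstimulated one. The probe set used for Ndufs8, 1 of 6 for the gene, is of a kind that can match other sequences. Ndufc1, an accessory subunit, had the largest difference of complex I, 0.42 ± 0.044 (adjusted p = 4.1e-09). Ndufa2, another accessory subunit, was called lower at -0.12 ± 0.037 (adjusted p = 0.00651), but the groups overlapped and within the first set the difference was -0.06 (adjusted p = 0.0771). Its only probe set is of that kind too.

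The 5 assembly factors did not move together. Ndufaf4 lay at 9.49, 9.40, 9.40, 9.41 and 9.51 with IL-4, against 8.71, 8.77 and 9.18 in unstimulated cells (0.56 ± 0.075, adjusted p = 2.8e-07), above all unstimulated arrays, and Ndufaf5 was higher too (0.38 ± 0.063, adjusted p = 7.33e-06). Ndufaf7 was called lower (-0.14 ± 0.050, adjusted p = 0.0158), with a first-set difference of -0.10 (adjusted p = 0.106). The only probe set of Ndufaf7, used here and below, is of a kind that can match other sequences. Ndufaf1 and Ndufaf3 had differences of 0.04 ± 0.052 and -0.10 ± 0.053 and did not pass the test.

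Complex IV, cytochrome c oxidase, had 11 of 14 genes higher and 1 lower, with a median difference of 0.25. Of the 10 ubiquitous subunits, 9 were higher, among them Cox5b (0.37 ± 0.035, adjusted p = 7.09e-10), Cox7a2 (0.26 ± 0.041, adjusted p = 3.51e-06), Ndufa4, now counted with complex IV (0.24 ± 0.033, adjusted p = 6.02e-07), Cox6a1 (0.23 ± 0.024, adjusted p = 4.13e-09) and Cox4i1 (0.12 ± 0.029, adjusted p = 6.57e-04). Cox7a1 and Cox6a2, the dim muscle isoforms, had means of 6.56 and 6.68 with IL-4, against 6.01 and 6.42 in unstimulated cells (0.55 ± 0.094 and 0.26 ± 0.077), below the filter in both groups.

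Cox7a2l moved the other way. It encodes a Cox7a-related protein that joins complexes III and IV into supercomplexes, and C57BL/6 mice carry a shortened form of it. It lay at 12.03, 11.96, 11.95, 11.93 and 11.89 with IL-4, against 12.08, 12.19 and 12.33 in unstimulated cells, so the highest IL-4 array was below all unstimulated ones (-0.24 ± 0.042, adjusted p = 1.4e-05). Within the first set the difference was -0.19 ± 0.038 (adjusted p = 1.94e-04). Its 3 probe sets gave -0.24, -0.26 and -0.23.

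**Figure D2:**
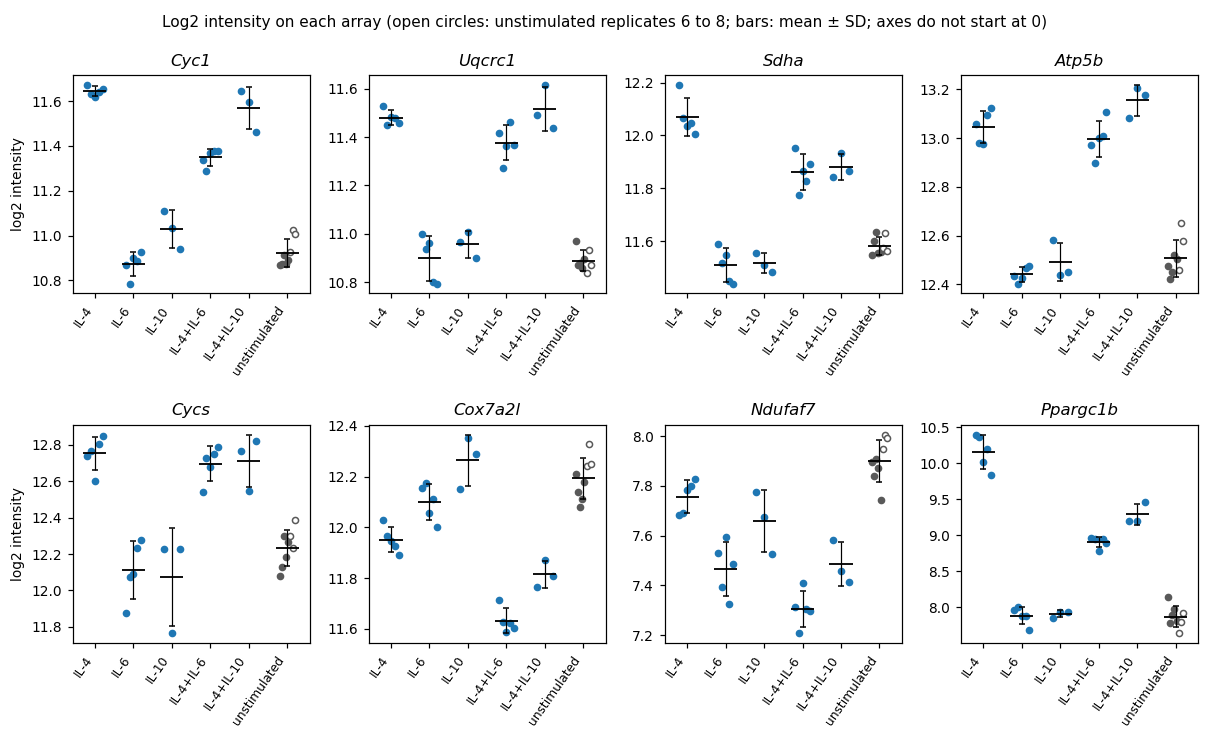
Log2 intensity (y axis) on each array in the 6 groups (x axis) for Cyc1, Uqcrc1, Sdha, Atp5b, Cycs, Cox7a2l, Ndufaf7 and Ppargc1b, with bars for mean ± SD and open circles for unstimulated replicates 6 to 8. Cyc1, Uqcrc1, Sdha, Atp5b and Cycs lie higher in the 3 groups with IL-4 than in unstimulated cells, and Cox7a2l lies lower in those 3 groups, lowest with IL-4 plus IL-6 (11.59 to 11.71).

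In all, 14 of 83 members were not called higher with IL-4: Cox7a2l, Ndufa2 and Ndufaf7, which were called lower, and Atp5g2, Cox7c, Cox8c, Ndufa6, Ndufa7, Ndufaf1, Ndufaf3, Ndufb11, Ndufb3, Ndufv3 and Uqcrh. Of these, Ndufv3 and Ndufaf1 were higher against unstimulated replicates 1 to 5 alone. With the replicate number as a block as well, Atp5g2 and Cox7c (0.18 ± 0.056, adjusted p = 0.0104) were higher too. Among members with several probe sets tested, 35 of 41 had all of them called the same way, and 0 had probe sets called in opposite directions. With IL-4 plus IL-6 the 2 probe sets of Atp5c1, of the F1 part, were called both ways (0.09 and -0.34), as were those of Atp5c1 (0.12 and -0.32) and of Ndufs4 of complex I (0.36, 0.31 and -0.19) with IL-4 plus IL-10. With IL-6 and IL-10 alone, where few members were called, 1 and 2 of 41 had all probe sets called the same way.

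IL-6 alone left most subunits close to the unstimulated level. Of 83 members, 2 were higher and 13 lower, where 16.1% of all genes tested were higher and 23.1% lower, and the median difference was -0.05. These calls moved with the controls: against unstimulated replicates 1 to 5 alone, 7 members were higher and 6 lower (median 0.01), where 17% and 20.1% of all genes were. Without IL-6 replicate 5, 9 members were called in all against the 8 unstimulated arrays. The Actb 3' minus 5' difference was 0.220 to 0.263 with IL-6, against 0.309 to 0.504 in unstimulated cells. That of Gapdh overlapped, at -0.058 to -0.003 with IL-6 and -0.109 to -0.014 in unstimulated cells. Their part was not tested. Ndufaf7 fell against all 8 unstimulated arrays and within the set, at 7.53, 7.39, 7.59, 7.33 and 7.48 with IL-6, against 7.74, 7.90 and 8.01 in unstimulated cells, with no overlap (-0.43 ± 0.050, adjusted p = 6.12e-08, and -0.39 within the set). Ndufs1, the largest core iron-sulfur subunit of complex I, had a mean of 10.24 with IL-6 against 10.36 in unstimulated cells (-0.12 ± 0.031, adjusted p = 0.00257, and -0.13 within the set), without overlap. Ndufb3, an accessory subunit, had differences of -0.17 ± 0.040 (adjusted p = 0.00114) and -0.12 within the set (adjusted p = 0.00176), while Ndufa5 had -0.19 ± 0.055 (adjusted p = 0.00658) and -0.09 (adjusted p = 0.0262). Cyc1, Sdha, Atp5b and Cycs, which rose with IL-4, had differences of -0.05 ± 0.036, -0.07 ± 0.035, -0.07 ± 0.040 and -0.12 ± 0.074 with IL-6, none past the test.

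IL-10 alone gave 17 members higher and 1 lower, where 18.3% of all genes tested were higher and 19.5% lower, so the higher share of the members was near that of all genes. The median difference was 0.08. Against unstimulated replicates 6 to 8 alone, 1 member was higher and 1 lower (median -0.01), and in that fit 8.97% of all genes were higher and 10.5% lower. The count also moved with single arrays, as 34 members were called in all without unstimulated replicate 7, 11 without IL-10 replicate 1 and 9 without IL-10 replicate 2. The 2 members called there were Cox6a2, one of the dim isoforms given as descriptions, at 7.04, 6.97 and 6.79 with IL-10, against 6.24, 6.42 and 6.67 in unstimulated cells, and Ndufaf7, at 7.78, 7.67 and 7.53 with IL-10, against 7.74, 7.90 and 8.01 (-0.24 ± 0.060 against all 8, adjusted p = 0.00211, and -0.32 within the set, adjusted p = 0.0107). Uqcrq and Ndufv3 had differences of 0.40 ± 0.083 (adjusted p = 4.07e-04) and 0.28 ± 0.055 (adjusted p = 1.76e-04) against all 8 arrays, and of 0.24 (adjusted p = 0.232) and 0.16 (adjusted p = 0.134) within the set. In complex II, Sdha, Sdhc and Sdhd had differences of -0.07 ± 0.041, -0.08 ± 0.042 and -0.11 ± 0.047 with IL-10 and Sdhb one of 0.05 ± 0.048, with adjusted p between 0.0538 and 0.46. Cycs was at 12.23, 11.77 and 12.23 with IL-10 (-0.16 ± 0.088, adjusted p = 0.156), and the second of these arrays was the lowest.

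**Figure D3:**
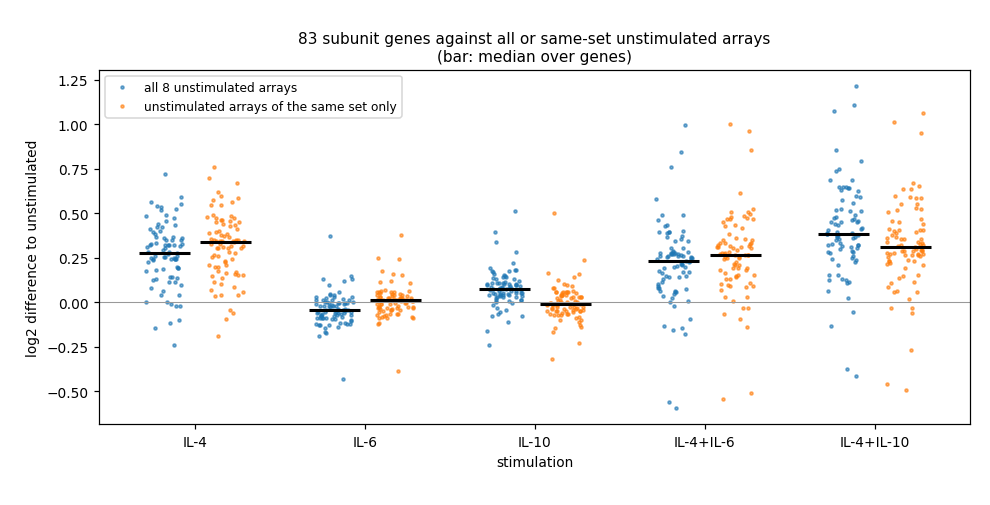
Log2 difference of the 83 members (points) to all 8 unstimulated arrays (blue) or to those of the same set only (orange) for each stimulation (x axis), with bars for the median over genes. The medians with IL-6 and IL-10 change sign between the controls (-0.05 and 0.01 with IL-6, 0.08 and -0.01 with IL-10), while those of the groups with IL-4 stay between 0.23 and 0.38.

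The rise with IL-4 was present in both combinations. With IL-4 plus IL-10, 75 members were higher and 2 lower than in unstimulated cells, where 38.1% of all genes tested were higher and 34% lower, and the median difference was 0.38. Against unstimulated replicates 6 to 8 alone, 67 were higher and 3 lower (median 0.31), where 29.8% and 29.9% of all genes were. With IL-4 plus IL-6, 62 members were higher and 5 lower, where 35% of all genes were higher and 38.8% lower (median 0.23), and within the set 72 were higher and 4 lower, where 36.6% and 37.8% of all genes were. The comparisons against unstimulated cells share controls, except for IL-4 against replicates 1 to 5 and IL-4 plus IL-10 against replicates 6 to 8. Of the 71 members higher in the one and the 67 higher in the other, 66 were higher in both, which is 93% and 98.5% of these lists. Each list holds most of the tested members, so a large overlap follows from the list sizes alone. The overlap over all genes tested is not given here, and these shares are a description. Most members were also higher where IL-4 was added to another cytokine: 66 members were higher and 3 lower with IL-4 plus IL-6 than with IL-6 alone (34% and 32.9% of all genes), and 70 were higher and 2 lower with IL-4 plus IL-10 than with IL-10 alone (31.8% and 28.1%).

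**Figure D4:**
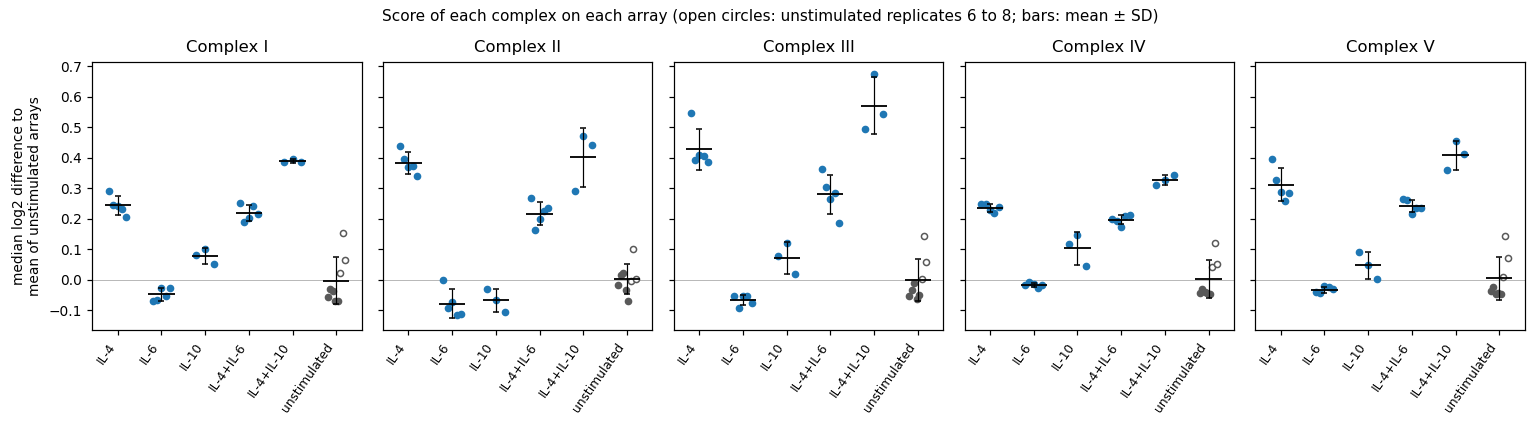
Score of each complex on each array (y axis, median over its tested members of the log2 difference to each member's mean over the 8 unstimulated arrays) in the 6 groups (x axis), with bars for mean ± SD and open circles for unstimulated replicates 6 to 8. All arrays with IL-4, alone or combined, lie above all arrays without it in complexes I to V.

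On each array, the median over all tested members lay between 0.25 and 0.33 with IL-4, between 0.21 and 0.26 with IL-4 plus IL-6 and between 0.36 and 0.40 with IL-4 plus IL-10, against -0.06 to 0.14 in unstimulated cells. The unstimulated array at 0.14 was replicate 7. Complex III stood highest in each of the 3 groups, at 0.43 ± 0.067 with IL-4, 0.28 ± 0.065 with IL-4 plus IL-6 and 0.57 ± 0.093 with IL-4 plus IL-10 (SD, n = 5, 5 and 3), against -0.001 ± 0.070 in unstimulated cells (n = 8). Complex II was at 0.38 ± 0.036, 0.22 ± 0.039 and 0.40 ± 0.097 in the same groups, against 0.00 ± 0.050, and complex IV at 0.24 ± 0.013, 0.20 ± 0.016 and 0.33 ± 0.017, against 0.00 ± 0.063. These scores describe the members, and no test was made of them.

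Some members had larger differences to unstimulated cells in the combinations than with IL-4. Uqcrq lay at 11.42, 11.41, 11.37, 11.37 and 11.35 with IL-4 plus IL-6 and at 11.61, 11.83 and 11.77 with IL-4 plus IL-10, against 10.49, 10.54 and 11.08 in unstimulated cells (0.76 ± 0.070, adjusted p = 1.45e-10, and 1.11 ± 0.083, adjusted p = 3.35e-12). Cox6a2 lay at 7.52, 7.43, 7.47, 7.04 and 7.62 with IL-4 plus IL-6 and at 7.46, 7.54 and 7.49 with IL-4 plus IL-10, against 6.24, 6.42 and 6.67 in unstimulated cells (0.99 ± 0.077 and 1.07 ± 0.092). Cox7a1 had differences of 0.84 ± 0.094 and 1.21 ± 0.111, again near the filter. The arrays of both combinations lay above all unstimulated arrays in these 3 genes, and RMA compresses the differences of probe sets as dim as those of Cox6a2 and Cox7a1. With IL-4 plus IL-10, Atp5g1 of the c ring was at 11.24, 11.34 and 11.29, against 10.27, 10.38 and 10.82 in unstimulated cells (0.85 ± 0.078, adjusted p = 1.89e-10), and Uqcr11, a small complex III subunit, had a difference of 0.79 ± 0.071 (adjusted p = 1.15e-10). Against replicates 6 to 8 alone these became 0.67 and 0.65. Set against IL-4 alone with a term for the set, Atp5g1 had a difference of 0.12 (adjusted p = 0.299) and Uqcr11 one of 0.17 (adjusted p = 0.16), and Cox7a1 one of 0.34, so these were not called higher than with IL-4.

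Cox7a2l and Ndufaf7 fell in both combinations. Cox7a2l lay at 11.71, 11.63, 11.59, 11.62 and 11.60 with IL-4 plus IL-6 and at 11.76, 11.87 and 11.81 with IL-4 plus IL-10, all below its IL-4 arrays and below the unstimulated range of 12.08 to 12.33. Its differences to unstimulated cells were -0.56 ± 0.042 (adjusted p = 1.23e-12) and -0.38 ± 0.049 (adjusted p = 1.2e-07). Alone, IL-6 and IL-10 gave it -0.09 ± 0.042 (adjusted p = 0.0766) and 0.07 ± 0.049 (adjusted p = 0.272). Ndufaf7 lay at 7.31, 7.21, 7.41, 7.30 and 7.30 with IL-4 plus IL-6 and at 7.58, 7.46 and 7.41 with IL-4 plus IL-10, below the unstimulated range of 7.74 to 8.01 (-0.60 ± 0.050, adjusted p = 2.33e-11, and -0.42 ± 0.060, adjusted p = 6.62e-07). Within the sets the 4 differences were -0.51 and -0.46 for Cox7a2l and -0.55 and -0.50 for Ndufaf7.

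When IL-6 was added to IL-4, with all arrays from the same set, 8 members were higher and 28 lower than with IL-4 alone, where 29.4% of all genes tested were higher and 31.2% lower. The share of members that were lower was thus near that of all genes, and the share that were higher was below it. These counts are from the fit that does not pair arrays by number. With the replicate number as a block within the set, further members were called, for example Atp5g2 lower (-0.13 ± 0.031, adjusted p = 0.0011) and Ndufs5 higher (0.10 ± 0.038, adjusted p = 0.0297). The shares of all genes in that fit are not given here. The median difference of the members was -0.05. The Actb 3' minus 5' difference moved with these groups, at 0.345 to 0.391 with IL-4 plus IL-6 against 0.294 to 0.340 with IL-4. That of Gapdh overlapped, at -0.0067 to 0.0445 with IL-4 plus IL-6 and -0.0399 to 0.0016 with IL-4. Their part in the result was not tested. In complex II, 3 of 4 genes were lower and 0 higher (median -0.22), and in complex III 6 of 9 were lower and 1 higher (median -0.18), while in complex I 5 of 33 were lower and 4 higher (median -0.02). Complexes IV and V had 6 genes lower each, with 2 and 0 higher and a median of -0.08 in both. No test of a difference between complexes was made.

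**Figure D5:**
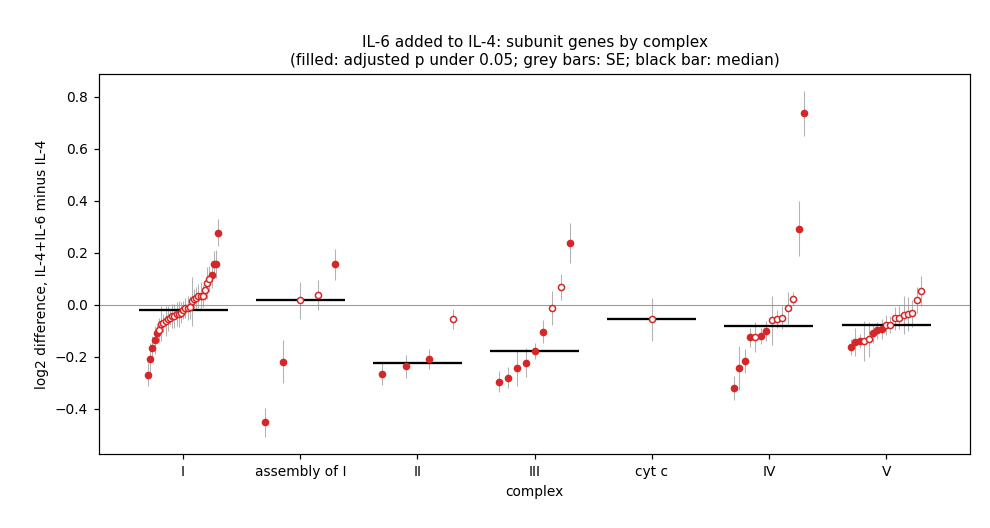
Log2 difference of the IL-4 plus IL-6 arrays to those with IL-4 alone (y axis) for each tested member, grouped by complex (x axis), filled where the adjusted p was under 0.05, with grey bars for the SE and black bars for the median. The medians of complexes II (-0.22) and III (-0.18) lie below that of complex I (-0.02).

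The electron-carrying subunits of complex III were among those that were lower when IL-6 was added. Cyc1 lay at 11.34, 11.29, 11.37, 11.38 and 11.38 with IL-4 plus IL-6, against 11.67, 11.63, 11.62, 11.64 and 11.66 with IL-4 alone (-0.30 ± 0.040, adjusted p = 2.91e-07). Uqcrfs1 lay at 11.24, 11.13, 11.15, 11.19 and 11.14, against 11.54, 11.42, 11.45, 11.43 and 11.41 with IL-4 alone (-0.28 ± 0.041, adjusted p = 1.02e-06). Neither gene's groups overlapped, and both stayed above the unstimulated mean (0.43 ± 0.036 and 0.14 ± 0.037, adjusted p = 1.82e-11 and 0.001). In complex II, Sdhd (-0.27 ± 0.043, adjusted p = 6.51e-06), Sdhb (-0.24 ± 0.045, adjusted p = 4.72e-05) and Sdha (-0.21 ± 0.038, adjusted p = 3.24e-05) were lower, and Sdhc had a difference of -0.06 ± 0.040 (adjusted p = 0.238). Ndufs8 lay at 11.79, 11.67, 11.67, 11.72 and 11.69 with IL-4 plus IL-6, against 12.03, 11.98, 11.96, 11.90 and 12.00 with IL-4 alone, without overlap (-0.27 ± 0.043, adjusted p = 5.45e-06).

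Atp5b and Cycs, in contrast, had small differences of -0.05 ± 0.044 (adjusted p = 0.35) and -0.06 ± 0.082 (adjusted p = 0.576) between these groups. Members that were higher when IL-6 was added included Ndufv3 (0.28 ± 0.052, adjusted p = 4.37e-05), Uqcrq (0.24 ± 0.078, adjusted p = 0.00999), and Ndufc2 (0.16 ± 0.054, adjusted p = 0.014), and Cox6a2 had a difference of 0.74 ± 0.086. Ndufaf7 and Cox7a2l were lower again, with differences of -0.45 ± 0.056 (adjusted p = 7.13e-08) and -0.32 ± 0.046 (adjusted p = 8.39e-07).

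The interaction of IL-4 with IL-6 (the effect of the combination less the sum of the single effects, so that 0 means that they add) was positive for 4 members and negative for 9, where 21.4% of all genes were positive and 18.6% negative. With arrays of the first set alone it was positive for 2 and negative for 21, where 20.7% and 20.4% of all genes were. With the replicate number as a block as well, these became 5 and 28, where 24.6% and 24.3% of all genes were. The most negative were Ndufs8 (-0.33 ± 0.059, adjusted p = 5.51e-05), Cyc1 (-0.25 ± 0.053, adjusted p = 4.86e-04) and Cox7a2l (-0.23 ± 0.062, adjusted p = 0.00412). The Ndufs8 value is again from a probe set that can match other sequences. For Cyc1 the single effects were 0.72 with IL-4 and -0.05 with IL-6, and the combination gave 0.43. Without IL-6 replicate 1, 8 members had a called interaction in all.

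The arrays of IL-4 plus IL-10 lie in another set than those of IL-4 alone, so no value within a set exists. Against IL-4 alone, 40 members were higher and 6 lower with IL-4 plus IL-10, where 32.7% of all genes were higher and 24.6% lower. With a term for the set, which uses the unstimulated arrays as the link, 6 were higher and 8 lower, where 17% and 16.1% of all genes were, so most of these calls cannot be told apart from the difference between the sets. The Actb 3' minus 5' difference was 0.42 ± 0.036 with IL-4 plus IL-10 and 0.32 ± 0.017 with IL-4 (SD, n = 3 and n = 5). That of Gapdh was -0.04 ± 0.035 and -0.01 ± 0.017, the other direction. Their part in the result was not tested. The medians of complexes II, IV and V were 0.03, 0.07 and 0.07 without the set term and -0.05, -0.04 and -0.04 with it. Those of complexes I and III were 0.20 and 0.08 without it and stayed positive with it, at 0.04 each. Under both fits Uqcrq (0.59 and 0.33), Ndufa7 (0.49 and 0.28), Ndufaf3 (0.38 and 0.24), Ndufb1 (0.34 and 0.26) and Ndufs5 (0.32 and 0.23) were higher. The dim Cox6a2 had differences of 0.82 and 0.80. Sdha (-0.19 and -0.20), Cox7a2l (-0.14 and -0.27), Cox7c (-0.23 and -0.45), Ndufaf7 (-0.27 and -0.40) and Atp5c1 (-0.13 and -0.15) were lower under both. Cox7c lay close to the filter, with means of 7.02 with IL-4 plus IL-10 and 7.24 with IL-4. Its probe set, like those of Uqcrq and Ndufaf7, can match other sequences. The interaction of IL-4 with IL-10 was positive for 4 members and negative for 4, where 15.5% and 10.1% of all genes were. With a term for the set it was positive for 3 and negative for 7, where 13.6% and 10.1% of all genes were. Without IL-10 replicate 3, 3 members had a called interaction in all, and without IL-4 plus IL-10 replicate 2 there were 5.

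Genes that act on the complexes from outside were set beside the subunits. Ppargc1b lay at 10.39, 10.36, 10.02, 10.20 and 9.83 with IL-4, against 7.64, 7.85 and 8.14 in unstimulated cells (2.29 ± 0.080, adjusted p = 2.35e-19). It averaged 8.91 ± 0.071 with IL-4 plus IL-6 and 9.29 ± 0.150 with IL-4 plus IL-10 (SD, n = 5 and n = 3), and IL-6 and IL-10 alone gave 7.88 ± 0.119 and 7.91 ± 0.048. Where IL-6 was added to IL-4 its difference to IL-4 alone was -1.26 ± 0.089 (adjusted p = 1.22e-12), without overlap between the groups. Of 15 tested genes of mitochondrial biogenesis and mtDNA expression, 9 were higher and 3 lower with IL-4, where 27.6% of all genes tested were higher and 31.9% lower. Tfam, which packages mtDNA and starts its transcription, was higher by 0.12 ± 0.028 (adjusted p = 9.66e-04), while Nrf1 and Gabpa had -0.05 ± 0.048 and 0.00 ± 0.033 and did not pass the test, and Polg, the mtDNA polymerase, was lower (-0.51 ± 0.063, adjusted p = 7.46e-08). In both combinations Tfam was below all unstimulated arrays (9.14 to 9.31). It lay at 9.047 to 9.103 with IL-4 plus IL-6 and at 9.017 to 9.121 with IL-4 plus IL-10. With IL-6 (9.003 to 9.062) and IL-10 (8.967 to 9.031) alone it was below them too.

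Of 31 tested assembly factors other than the members, 14 were higher and 4 lower with IL-4 (median 0.07), beside the same shares of all genes. Higd1a, which associates with complex IV, was higher by 0.38 ± 0.052 (adjusted p = 4.2e-07), and Surf1, needed to assemble complex IV, was lower (-0.26 ± 0.060, adjusted p = 4.04e-04). Of 6 carriers and channels, 4 were higher and 0 lower, led by Slc25a5, an ADP/ATP carrier (0.40 ± 0.029, adjusted p = 2.09e-12). Atpif1, the inhibitor of the ATP synthase, was lower in all 5 stimulated groups, at 12.24 ± 0.013 with IL-4, 12.19 ± 0.048 with IL-6, 12.20 ± 0.072 with IL-10, 12.03 ± 0.036 with IL-4 plus IL-6 and 12.24 ± 0.061 with IL-4 plus IL-10, against 12.38 ± 0.059 in unstimulated cells. Its largest difference was -0.36 ± 0.032 with IL-4 plus IL-6 (adjusted p = 9.82e-11).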

How the data were processed

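Expression was measured on 29 Affymetrix 3' arrays of 22690 probe sets. The submitters' processing notes name RMA and GCOS 1.4, and the deposited values are on a log2 scale. The log base is not stated, and the highest value, 15.13, is too large for natural logarithms of scanner signals. Whether all arrays were normalized together is not given in the sources used here. RMA compresses differences of dim probe sets. Values were used as deposited.

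The platform annotation names 1 gene for 20393 probe sets, several for 691 (not used, 8 of them with a member's symbol) and none for 1606. By gene ID, 20364 matched RefSeq's gene table and 0 symbols changed. The probe set with the highest mean stood for a gene, and other probe sets, some shared with paralogs or pseudogenes, were tested as an alternative. Groups were fitted together with limma 3.58.1 (R 4.3.3; moderated two-sided tests, Benjamini-Hochberg over the 7154 genes tested, called at 0.05). The script was tested on simulated data. Members and gene lists were chosen with earlier results of these data known. The rule for naming took the 5 largest called increases and decreases of each comparison, alternative isoforms, complex II, Cyc1, Cycs and the assembly factors. It also took up to 4 called genes of each other list. Not every gene under the rule is shown. With IL-6, for example, Atp5pb, Ndufaf1 and Ndufs3 are left out, and none is named for the combinations against IL-6 or IL-10 alone. Other genes shown array by array or singled out were picked once their values were known.

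Alternatives tried were other normalization, filters, probe set rules, thresholds, array weights, fits of only the groups compared, leaving out each array, the replicate number as a block, and the set as a term or alone. Same-numbered arrays of a set deviated together (33 pairs, correlations 0.457 to 0.776, median 0.605), while other numbers ranged from -0.576 to 0.49 (median -0.269). Every same-numbered pair is above 0.1, so numbers were taken to pair arrays within a set. Numbers of the IL-10 groups do not pair with unstimulated replicates 1 to 3.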

Additional observations from a re-analysis of the deposited data

Results flagged for a closer look

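Some arrays stood apart from the others of their group, by a gap larger than Dixon's critical value. Of 128 groups of values looked at (27 genes and the 5 complex scores, in groups of 5 or 8 arrays), 11 stood out, where chance alone gives about 1 in 20. IL-4 replicate 1 was highest in the complex III score (0.546, others 0.385 to 0.41), in Uqcrq (11.198, others 11.125 to 11.143) and in Uqcrfs1 (11.544, others 11.412 to 11.445). Unstimulated replicate 7 was highest in Uqcrq (11.077, others 10.488 to 10.726), Ndufa7 (11.907, others 11.477 to 11.623), Cox4i1 (13.296, others 13.131 to 13.199) and Ndufa4 (12.181, others 11.96 to 12.04). IL-6 replicate 1 was lowest in Atp5o (11.49, others 11.598 to 11.624) and highest in Sdhd (11.012, others 10.891 to 10.912). IL-6 replicate 5 was lowest in Uqcrfs1 (10.814, others 10.914 to 10.948) and highest in Cox6a2 (6.925, others 6.746 to 6.786).

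For other members the effect of IL-4 differed with and without a second cytokine, by the interaction term in limma. With IL-6, the interaction was below 0 for Ndufs8 (-0.326, or -0.387 with a term for the set), Cyc1 (-0.247 and -0.285), Cox7a2l (-0.228 and -0.277), Sdhd (-0.167 and -0.182), Uqcrfs1 (-0.155 and -0.191) and Sdha (-0.134 and -0.139). Atp5g3 (-0.134 and -0.153), Atp5d (-0.138 and -0.134) and Ndufa13 (-0.116 and -0.138) were below 0 too. Of these, Atp5d did not pass the test with the term for the set. The interaction with IL-6 was above 0 for Cox6a2 (0.366 and 0.36), a description since this dim gene passed the filter through groups where it was high. It was also above 0 for Ndufv3 (0.177 and 0.103), Ndufs5 (0.174 and 0.138) and Ndufb3 (0.16 and 0.107), which did not pass the test with the term for the set. In limma with the first set alone, Ndufb3 passed (adjusted p = 0.0305). Ndufs5 passed there only with the replicate number as a block as well (adjusted p = 0.0442). With IL-10, it was below 0 for Atp5pb (-0.259 and -0.289), Ndufs8 (-0.224 and -0.286), Cox7a2l (-0.208 and -0.257) and Cyc1 (-0.182 and -0.221). It was above 0 for Ndufa7 (0.313 and 0.235), Ndufs5 (0.278 and 0.242), Sdhc (0.228 and 0.222) and Ndufb3 (0.19 and 0.137), the last of which did not pass the test with the term for the set. Ndufs8 with IL-10 rests on its probe set: when a probe set not shared with other sequences stood for the gene, the value was 0.001.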

How the results depend on the processing

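The counts of called members in the 3 groups with IL-4 against unstimulated, and in the combinations against IL-6 or IL-10 alone, stayed within 1.5 times under every alternative run. Counts that did not, higher and lower calls summed, were as follows. At an adjusted p under 0.01, IL-6 gave 6 (15 at 0.05), IL-10 8 (18), IL-4 plus IL-6 against IL-4 23 (36), the interaction with IL-6 4 (13) and that with IL-10 1 (8). For IL-10 the count was 11 without a filter, 35 with array weights, 8 with only the groups compared, 44 with the replicate block, 4 with a term for the set and 2 with 1 set only. The replicate block matches IL-10 arrays to first-set arrays of the same number, which do not pair. The 44 is therefore a comparison across the sets. For IL-4 plus IL-10 against IL-4 it was 14 with a term for the set and 25 with the replicate as a random block too. For the interaction with IL-6 it was 5 without a filter, 28 with array weights, 23 with the replicate block, 28 with a set term and random block, 23 with 1 set only and 33 with the replicate block as well. For that with IL-10 it was 5 without a filter, 13 with trend and robust eBayes, 3 with only the groups compared and 16 with a set term and random block. The replicate block moved no other count past 1.5 times. Leaving out each array gave 67 to 73 for IL-4, 9 to 18 for IL-6 (9 without IL-6 replicate 5), 9 to 34 for IL-10 (9 without IL-10 replicate 2, 11 without IL-10 replicate 1, 34 without unstimulated replicate 7), 66 to 71 for IL-4 plus IL-6, 76 to 78 for IL-4 plus IL-10, 30 to 41 for IL-4 plus IL-6 against IL-4, 66 to 71 against IL-6, 38 to 48 for IL-4 plus IL-10 against IL-4, 68 to 73 against IL-10, 8 to 18 for the interaction with IL-6 (8 without IL-6 replicate 1) and 3 to 11 for that with IL-10 (3 without IL-10 replicate 3, 5 without IL-4 plus IL-10 replicate 2). Among the medians against unstimulated cells, signs turned for complexes I (0.01) and V (0.014) with IL-6 under each fit that separates the sets or blocks the number, and of complexes I (-0.006), III (-0.017) and V (-0.017) with IL-10 with a set term or 1 set. Ndufaf4 turned to -0.147 with IL-10 and -0.184 for IL-4 plus IL-10 against IL-4 with a set term and random block, and Ndufs8 to 0.001 in the interaction with IL-10 when probe sets not shared with other sequences came first. The causes were not tested. Small groups and values near the filter limit precision.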

Other observations

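The mitochondrial ribosome, which translates the subunits encoded by mitochondrial DNA, was looked at beside the nuclear subunits. Of its 74 tested genes, 41 were higher and 2 lower with IL-4 (median 0.13), 50 and 3 with IL-4 plus IL-6 (median 0.18) and 67 and 1 with IL-4 plus IL-10 (median 0.36), against unstimulated cells, where 27.6% and 31.9%, 35% and 38.8%, and 38.1% and 34% of all genes tested were higher and lower. IL-6 alone gave 3 higher and 14 lower (16.1% and 23.1% of all genes), and IL-10 alone 14 higher and 2 lower (18.3% and 19.5%), with the larger count of each near the share of all genes or below it. These counts are against all 8 unstimulated arrays. The ribosome score, made as for the complexes, averaged 0.07 ± 0.088 in unstimulated replicates 6 to 8 and -0.05 ± 0.021 in 1 to 5 (SD, n = 3 and n = 5). It averaged 0.37 ± 0.047 with IL-4 plus IL-10 and 0.04 ± 0.079 with IL-10 (n = 3 each). Within that set the rise with IL-4 plus IL-10 is thus smaller. Where IL-6 was added to IL-4, 23 were higher and 9 lower (29.4% and 31.2% of all genes), so the higher share was near that of all genes. The genes with the largest differences included Mrps25 (0.50 ± 0.055, adjusted p = 8.9e-09 in limma) and Mrpl41 (0.48 ± 0.065, adjusted p = 2.59e-07). The interaction of IL-4 with IL-6 was positive for 20 of these ribosomal genes and negative for 0 (21.4% and 18.6% of all genes), and with a term for the set for 12 and 2. The shares of all genes with that term are not given here. With the first set alone they were 20.7% and 20.4%. The positive counts were thus near these shares, and the negative counts below them.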
